A study of Mus musculus with 18 samples.

Results

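IP14D-1 and IP36D-3 are induced pluripotent stem (iPS) cell lines, that is, mouse somatic cells reprogrammed to a state like that of embryonic stem (ES) cells. They were compared with each other through the 3 arrays whose titles name IP14D-1 exactly and the 3 whose titles name IP36D-3, 6 of the 18 arrays used here. Both lines carry the strain label B6 x D2 F1, a cross of the inbred strains B6 and D2. Each group is 1 line, so a difference between the groups is a difference between those lines. The other arrays came from ESC2, an ES line of the same strain label, IP20D-3, a further iPS line of that label, IP14D-101, an iPS line of B6 x 129S2 F1, and R1, an ES line of the cross 129X1/SvJ x 129S1 F1, with 3 arrays each. All lines grew with the cytokine LIF on mitomycin C-treated mouse embryonic fibroblasts (MEF), which stop dividing but still hold RNA. The fibroblasts from which the iPS lines were made were not analysed here. The culture medium contained either fetal bovine serum or Knockout serum replacement. Neither line is labelled with its own medium, so medium and line cannot be told apart. No reprogramming factors, passage numbers or sexes are given for either line in the labels.

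The design text calls the 3 arrays of a line biological replicates, and no label says whether they came from separate cultures. The p-values therefore measure the spread between arrays, which was estimated for each gene over all 6 lines together. All levels below are log2 intensities with the SD over n = 3 arrays. Differences are IP14D-1 minus IP36D-3 in log2, given with limma's standard error, so a difference of 1 is 2-fold. A gene was called at an adjusted p under 0.05 and a difference of at least 1 either way. The median gene of an array stood at 5.8 to 6.02, and levels under it were not shown to lie above background. In cultures of mixed cells, fewer cells of a type and less RNA per cell cannot be told apart.

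Pluripotent cells keep a shared network of transcription factors, of which Pou5f1, Nanog and Sox2 are the core. Lines of that state still differ in imprinted genes, which are read from 1 parental copy and keep that memory through DNA methylation. The Dlk1-Dio3 region on mouse chromosome 12 is such a cluster, with protein genes read from the paternal copy and the noncoding RNAs Meg3, Rian and Mirg from the maternal copy. Cells short of amino acids or with unfolded proteins in the endoplasmic reticulum slow translation and raise the transcription factors Atf4 and Ddit3 (CHOP), which drive amino acid transporters, biosynthetic enzymes and stress genes. Cholesterol synthesis is driven by sterol-sensing SREBP factors.

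The starts of the genes that carry the imprinting and stress differences are shown first, as 300 bases from 250 before to 50 after the RefSeq start, on the build GRCm38.p6. Meg3 is the gene that differed most between the lines. The other 5 are called stress genes whose promoters hold an amino acid response element, the site through which Atf4 and its partners act. Capitals mark the cAMP response element TGACGTCA in Meg3 and the amino acid response element TGATGNAA, on either strand, in the others.
Meg3, chr12:109540746-109541045, plus strand: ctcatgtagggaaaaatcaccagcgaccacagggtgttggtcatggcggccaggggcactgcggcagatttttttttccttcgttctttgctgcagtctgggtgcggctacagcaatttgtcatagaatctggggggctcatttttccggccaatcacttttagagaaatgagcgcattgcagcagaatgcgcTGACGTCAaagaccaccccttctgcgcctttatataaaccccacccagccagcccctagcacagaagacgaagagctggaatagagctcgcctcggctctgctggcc
Chac1, chr2:119350992-119351291, plus strand: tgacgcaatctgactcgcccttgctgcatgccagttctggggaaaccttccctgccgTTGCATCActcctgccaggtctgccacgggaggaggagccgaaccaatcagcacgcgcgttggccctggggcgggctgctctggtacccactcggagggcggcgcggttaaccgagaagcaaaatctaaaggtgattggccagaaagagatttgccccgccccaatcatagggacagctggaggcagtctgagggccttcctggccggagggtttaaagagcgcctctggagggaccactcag
Nupr1, chr7:126625421-126625720, minus strand: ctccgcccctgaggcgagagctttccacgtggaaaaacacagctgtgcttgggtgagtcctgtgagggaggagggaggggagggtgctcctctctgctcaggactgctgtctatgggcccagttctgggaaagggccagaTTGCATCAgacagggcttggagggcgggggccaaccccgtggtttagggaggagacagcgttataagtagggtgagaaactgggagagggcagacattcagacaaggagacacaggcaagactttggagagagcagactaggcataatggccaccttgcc
Atf3, chr1:191183284-191183583, minus strand: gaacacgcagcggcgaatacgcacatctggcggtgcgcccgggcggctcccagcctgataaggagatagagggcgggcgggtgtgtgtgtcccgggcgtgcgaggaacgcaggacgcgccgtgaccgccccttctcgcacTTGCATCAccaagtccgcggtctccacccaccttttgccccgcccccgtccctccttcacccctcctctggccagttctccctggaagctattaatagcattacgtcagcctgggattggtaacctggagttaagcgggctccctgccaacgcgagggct
Vldlr, chr19:27216770-27217069, plus strand: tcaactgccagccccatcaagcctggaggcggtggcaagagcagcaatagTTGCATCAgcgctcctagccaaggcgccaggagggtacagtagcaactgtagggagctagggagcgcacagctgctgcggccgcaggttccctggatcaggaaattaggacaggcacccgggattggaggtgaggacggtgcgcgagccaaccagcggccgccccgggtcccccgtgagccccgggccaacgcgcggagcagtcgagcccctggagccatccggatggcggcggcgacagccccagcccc
Jdp2, chr12:85599166-85599465, plus strand: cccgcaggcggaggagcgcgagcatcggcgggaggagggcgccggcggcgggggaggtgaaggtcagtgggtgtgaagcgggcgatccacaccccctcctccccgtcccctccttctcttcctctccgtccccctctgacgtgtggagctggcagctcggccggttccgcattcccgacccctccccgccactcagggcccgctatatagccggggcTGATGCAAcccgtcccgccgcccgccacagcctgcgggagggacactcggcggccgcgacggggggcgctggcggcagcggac

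The motif TGATGNAA was found in 1304 of 32851 promoters of this length (3.97%). Counting a gene when any of its promoters held it, these were 1219 of 27025 genes (4.51%), 8 of 26 matched stress genes (30.8%) and 5 of 23 matched genes of amino acid supply (21.7%). Of the stress genes that hold it, Atf3, Chac1, Jdp2, Nupr1 and Vldlr were called and Fgf21, Herpud1 and Trib3 were not. Among the amino acid genes that hold it, Pck2 and Slc1a4 were called and Asns, Got1 and Slc7a11 were not. TGACGTCA stood in 588 promoters (1.79%), and among the 4 matched genes of the Dlk1-Dio3 region in that of Meg3. The sterol response element TCACNCCAC stood in 408 promoters (1.24%) and in 1 of 26 matched cholesterol and fatty acid genes (3.85%, against 1.44% of all genes), Hmgcs1, which was not called. All motifs were searched on both strands, their ends share letters so that sites of different motifs can overlap, and a match is of letters, not of measured binding. RefSeq gives further starts for some genes, 2 for Meg3 and Vldlr and 3 for Jdp2, and the promoter shown is the one that holds the motif.

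Of 18193 genes tested, 617 (3.39%) were called, with 273 higher in IP14D-1 (1.5%) and 344 lower (1.89%). The levels of the 3 arrays of IP14D-1 and those of IP36D-3 did not overlap for any of the 617, which the threshold on size nearly fixes, and they did not overlap for 52.6% of all genes. After a repeated quantile normalization of the 18 arrays the split turned, with 329 genes higher and 260 lower, so which direction holds more calls depends on the scaling. The largest differences were upward: 17 genes were higher in IP14D-1 by at least 2 and 2 were lower by as much. Arrays of IP14D-1 differed among themselves by a root mean square of 0.169 to 0.193 in log2 across genes, those of IP36D-3 by 0.204 to 0.221, and arrays of different lines by 0.422 to 0.491. Genes with a mean level of at least 6 had a median difference of -0.13 and those under 6 of 0.07, against 0.01 over all genes, and medians of gene lists below stand beside that shift.

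**Figure D1:**
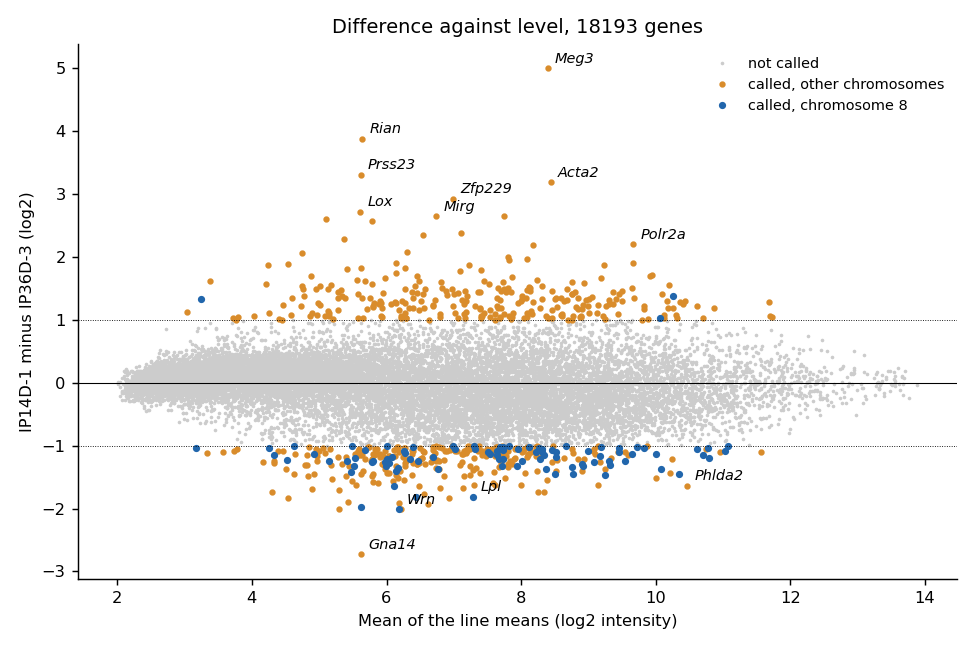
Difference between the lines (IP14D-1 minus IP36D-3, log2) for each of 18193 genes against the mean of the line means (log2 intensity); dotted lines mark a difference of 1 either way. Orange points are called genes of other chromosomes and blue points those of chromosome 8, of which 92 lie below and 3 above; Meg3 stands highest at 4.99 and Gna14 lowest at -2.73.

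Both lines showed the markers of pluripotent cells. All 10 markers (Pou5f1, Nanog, Sox2, Zfp42, Dppa5a, Utf1, Tdgf1, Sall4, Lin28a and Esrrb) lay above the array median, with a mean of 11.58 in IP14D-1 and 11.34 in IP36D-3. Of these 10, 0 were called, against 3.39% of all genes (at an unadjusted p under 0.05 in limma, 6 were higher and 0 lower). Of the defining markers of fibroblast feeders, 14 of 15 were measured, and 5 of 14 were called higher in IP14D-1 (35.7%, against 1.5% of all genes). Their summed linear intensity was 2737 to 2990 in IP14D-1 and 1531 to 1646 in IP36D-3. In IP14D-1 10 of these 14 stood under the array median, and in IP36D-3 13 did, so that 1 gene supplies most of the IP36D-3 sum. The 18S ribosomal RNA control signal, a mean of its probe sets, was 46.9 to 57.5 in IP14D-1 and 107.2 to 229.7 in IP36D-3. The 3' to 5' signal ratio, a measure of RNA degradation and labelling, was 1.254 to 1.288 against 1.242 to 1.285 for beta-actin and 0.941 to 0.978 against 0.887 to 0.916 for Gapdh. The labels give no batch or date.

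All 4 measured genes of the Dlk1-Dio3 region were higher in IP14D-1, of 6 listed, and 3 of them were among the 10 largest upward differences taken by the naming rule. Meg3, a noncoding RNA of the maternal copy, stood at 10.81, 10.97 and 10.90 in IP14D-1 and at 5.95, 6.0 and 5.76 in IP36D-3. The difference was 4.99 ± 0.16, or 31.8-fold (adjusted p = 9.73e-13), and the 10 other probe sets of Meg3 went the same way. Meg3 was thus bright in every IP14D-1 array and near the array median in every IP36D-3 array, with a mean under it.

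Rian, which hosts small nucleolar RNAs, stood at 7.43, 7.37 and 7.92 against 3.6, 3.73 and 3.79. It differed by 3.87 ± 0.18, or 14.6-fold (adjusted p = 1.09e-10). Mirg, which hosts microRNAs, stood at 8.15, 8.10 and 7.95 against 5.45, 4.95 and 5.87, a difference of 2.64 ± 0.17 (adjusted p = 3.66e-09). The IP36D-3 means of all 4 genes of the region were under the array median, so the size of each fold, that of Meg3 included, starts from a level not shown to lie above background.

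Dlk1, a membrane protein read from the paternal copy, was also higher in IP14D-1. Its arrays stood at 7.30, 7.07 and 7.19 against 5.69, 5.58 and 5.69, a difference of 1.53 ± 0.13 (adjusted p = 4.13e-08). Its other probe set, under level 6, went the opposite way, and Dlk1 was not called when the probe sets of a gene were averaged. Among lines of the same strain label, Meg3 was 11.34 in ESC2 and 5.23 in IP20D-3, so IP14D-1 was nearer the ES line and IP36D-3 nearer the other iPS line. For Dlk1 the order differed, with 5.84 in ESC2 and 5.22 in IP20D-3, both nearer IP36D-3. Feeder markers also moved with this result, and their part in it was not tested. In IP14D-101, where the mean of the 34 fibroblast genes was 5.60 against 6.10 in IP14D-1 and 5.40 in IP36D-3, Meg3 stood at 9.71.

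Of 49 other imprinted genes, 3 were called higher and 2 lower, with a median of 0.07. Nnat, a paternally expressed gene of neurons and hormone-secreting cells, stood at 9.06 ± 0.04 against 7.11 ± 0.09. Plagl1, a zinc finger factor of growth control, stood at 9.56 ± 0.13 against 7.96 ± 0.04, a difference of 1.60 ± 0.14, and was not called when probe sets were averaged. Peg10, a retrotransposon-derived gene needed in placenta, was 1.37 ± 0.16 higher and lay under the array median in IP36D-3, and its call was lost when 16 was added before the log.

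The imprinted genes that were lower in IP14D-1 were Atp10a, a phospholipid transporter, and Phlda2, which restrains placental growth. Phlda2 was bright in both lines, at 9.64, 9.54 and 9.76 in IP14D-1 and 11.28, 11.25 and 11.34 in IP36D-3, a difference of -1.64 ± 0.08 (adjusted p = 5.02e-10). Atp10a stood at 5.22 against 7.22, which is under the array median in IP14D-1. Igf2, Mest, Snrpn and Igf2r differed by 0.17 or less either way and were not called. The shares called were 6.12% higher and 4.08% lower, against 1.5% and 1.89% of all genes.

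Among 17 measured genes that protect imprints or methylate DNA, Zfp57 and Arid4a were called higher in IP14D-1 (11.8%, against 1.5% of all genes). Arid4a, a chromatin protein, differed by 1.03 ± 0.19, but lost its call under 4 settings, among them averaging the probe sets and leaving out the second array of IP14D-1 or the first of IP36D-3, and 1 of its 2 other probe sets went the opposite way. Zfp57, a zinc finger protein that holds methylation at imprinted regions, stood at 8.70, 8.61 and 8.80 against 7.00, 7.00 and 7.10. The difference was 1.67 ± 0.09, or 3.18-fold (adjusted p = 8.26e-10). ESC2 was at 6.26 and IP20D-3 at 7.11, so IP14D-1 had the most Zfp57 among the lines that share the strain label.

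Trim28, the partner through which Zfp57 acts, differed by 0.05 ± 0.07 and was not called. Dppa3, which shields methylation in the early embryo, stood at 8.47 against 9.43 and Dnmt3a, a de novo DNA methyltransferase, at 9.24 against 10.20. Their differences of -0.97 ± 0.07 and -0.96 ± 0.12 stopped just short of the threshold of 1. Among 18 genes of Polycomb repressive complex 2 and its partners, 1 was called higher (5.56%, against 1.5% of all genes). That gene, Epop, which tethers the elongin proteins to the complex, stood at 10.69, 10.56 and 10.60 against 8.68, 8.65 and 8.82, a difference of 1.90 ± 0.08 (adjusted p = 2.83e-11). The catalytic subunit Ezh2 differed by 0.14 ± 0.07.

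**Figure D2:**
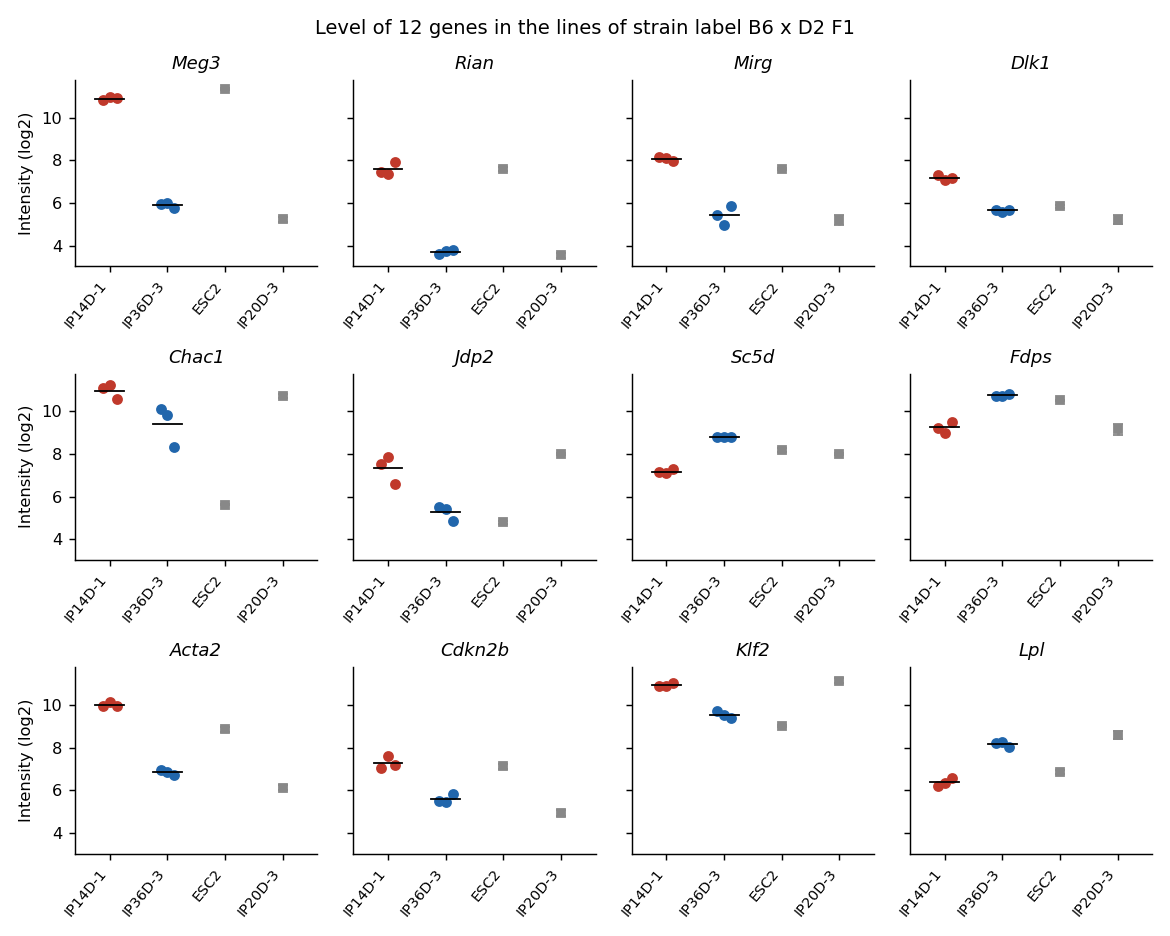
Log2 intensity of 12 genes in each array of IP14D-1 (red) and IP36D-3 (blue), with a line at the mean of 3 arrays, and the mean of ESC2 and IP20D-3 with its SD (grey; mostly hidden by the symbol). Meg3, Rian and Mirg are high in IP14D-1 and ESC2, Jdp2 is high in IP14D-1 and IP20D-3, and Sc5d and Fdps are highest in IP36D-3. Chac1 is far lowest in ESC2, and higher in IP14D-1 and IP20D-3 than in IP36D-3.

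Genes of the integrated stress response were higher in IP14D-1. Of 27 measured members 10 were called higher (37.0%), 1 was called lower and 16 were not called, and the median was 0.52. Jdp2, a leucine zipper factor related to Atf3, stood at 7.53, 7.88 and 6.61 in IP14D-1 and 5.51, 5.43 and 4.84 in IP36D-3, a difference of 2.08 ± 0.22 (adjusted p = 7.49e-07). Vldlr, a lipoprotein receptor and Atf4 target, stood at 7.11, 7.64 and 6.52 against 5.68, 5.45 and 4.45. In both genes the third array was the lowest of its line, and the lines still did not overlap.

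Chac1, which degrades glutathione and is a leading target of CHOP and Atf4, stood at 11.10, 11.24 and 10.59 against 10.10, 9.84 and 8.33. Its difference was 1.55 ± 0.31, or 2.94-fold (adjusted p = 0.000457), and 1.01 without the third array of IP36D-3. The SD of Chac1 was 0.34 in IP14D-1 and 0.96 in IP36D-3, against 0.04 to 0.28 in the other lines. Its standard error, shared over all lines, thus understates the spread in the lines compared. The same held for Jdp2, with an SD of 0.66 in IP14D-1 and 0.36 in IP36D-3 against at most 0.15 in the other lines. It held for Vldlr (0.56 and 0.65, against at most 0.23) and Atf3 (0.36 and 0.68, against at most 0.24) also. Chac1 was 5.63 in ESC2 and 10.73 in IP20D-3, so both iPS lines compared here lay far above the ES line. Atf3, a factor induced by stress, stood at 7.79, 7.84 and 7.2 against 6.69, 6.39 and 5.40, a difference of 1.46 ± 0.23 (adjusted p = 6e-05).

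Ddit4, an inhibitor of mTORC1 signalling, stood at 10.46, 10.71 and 10.01 against 9.10, 9.0 and 8.60. The transcription factors Ddit3 and Cebpb were higher by 1.40 ± 0.23 and 1.10 ± 0.16, and the stress proteins Nupr1, Sesn2 and Stc2 by 1.41 ± 0.28, 1.20 ± 0.12 and 1.09 ± 0.25. Atf4 itself, much of whose control is at translation, stood at 11.85 against 11.53 and was not called. Sdf2l1, a chaperone cofactor of the endoplasmic reticulum, was the member called lower, at 5.84 against 7.12 (-1.28 ± 0.10), and Hspa5, the main chaperone there, had a difference of -0.56 ± 0.08 with no call. The call rate of all genes in the upward direction was 1.5%.

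Genes of serine, one-carbon and amino acid supply were also called in the upward direction only, 7 of 29 measured (24.1%, against 1.5% of all genes). Their median was 0.47. They were the transporters Slc6a9 (glycine), Slc1a4 (neutral amino acids), Slc7a5 (large neutral amino acids) and Slc7a1 (cationic amino acids), and the enzymes Aldh1l2, Pck2 and Bcat1. Pck2, the mitochondrial enzyme that makes phosphoenolpyruvate, stood at 9.46, 9.76 and 9.01 against 8.48, 8.46 and 8.17, a difference of 1.04 ± 0.14. Slc6a9 differed by 1.29 ± 0.14, with its call lost when probe sets were averaged, and Slc7a5 by 1.02 ± 0.10, although Slc7a5 lies on chromosome 8, where most genes went the other way. In IP14D-1 and IP36D-3 the SD was 0.38 and 0.17 for Pck2 and 0.43 and 0.16 for Slc6a9. In the other lines it was at most 0.16 for Pck2 and 0.11 for Slc6a9, so their standard errors understate the spread too.

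These 7 differences were 1.01 to 1.29, close to the threshold, and the count rests on single arrays. It was 4 without the first array of IP14D-1, 1 without its second, and 3 without the third array of IP36D-3. With probe sets averaged it was 4, and the list median 0.31. The serine synthesis enzymes Phgdh and Psat1 differed by 0.26 ± 0.08 and -0.11 ± 0.07, and Asns, which makes asparagine, by 0.28 ± 0.08, with no call. The list mean was 9.41, 9.55 and 9.19 in the arrays of IP14D-1 and 9.01, 8.95 and 8.87 in those of IP36D-3, so the lines did not overlap. For the stress list those means were 8.54, 8.69 and 8.24 against 8.09, 8.0 and 7.62. In each line the array numbered 3 was thus the lowest in both lists.

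Cholesterol and fatty acid synthesis went the other way. Of 33 measured genes 7 were called lower in IP14D-1 (21.2%), 0 were called higher, and 30 had a difference below 0, with a median of -0.59. Sc5d, an enzyme of the last steps of cholesterol synthesis, stood at 7.15, 7.09 and 7.29 in IP14D-1 and 8.79, 8.82 and 8.81 in IP36D-3, a difference of -1.63 ± 0.08 (adjusted p = 2.95e-10). Fdps, which makes farnesyl diphosphate, stood at 9.23, 9.01 and 9.5 against 10.72, 10.73 and 10.83, a difference of -1.51 ± 0.13 (adjusted p = 4.91e-08). Both genes were brighter in every array of IP36D-3.

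Scd1, which puts a double bond into fatty acids, stood at 6.11 ± 0.10 against 7.59 ± 0.14. Fdft1, which makes squalene, differed by -1.26 ± 0.10, Hsd17b7 by -1.27 ± 0.10, Msmo1 by -1.10 ± 0.08 and Acss2, which makes acetyl-CoA from acetate, by -1.09 ± 0.09. Msmo1 lies on chromosome 8. Idi1, Hmgcs1, Insig1 and Sqle, targets of SREBP2, differed by -0.83 ± 0.16, -0.80 ± 0.12, -0.60 ± 0.13 and -0.50 ± 0.08 with no call, while Srebf2 itself differed by 0.01 ± 0.10. When all probe sets of a gene were averaged, 2 of the list were called lower in place of 7, and Sc5d, Fdps, Fdft1 and Hsd17b7 were among those lost. The call rate of all genes in the downward direction was 1.89%. The mean of the list was 7.90 in IP14D-1 and 7.89 in IP20D-3, against 8.52 in IP36D-3 and 8.48 in ESC2.

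**Figure D3:**
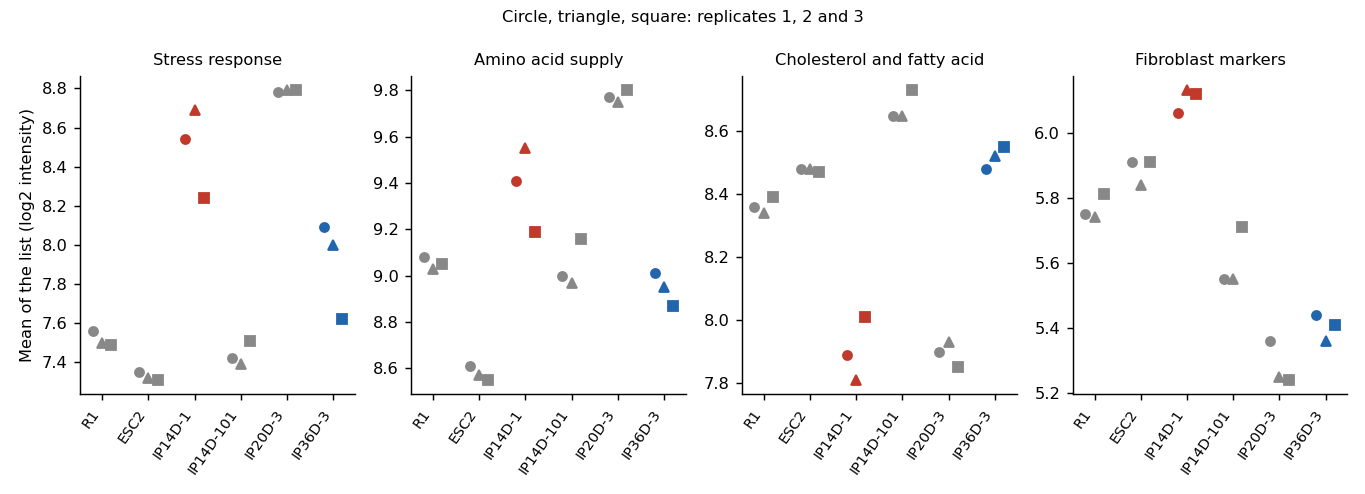
Mean log2 intensity of 4 gene lists in each of the 18 arrays (circle, triangle and square for replicates 1, 2 and 3; red IP14D-1, blue IP36D-3, grey the other lines; each panel has its own axis). IP20D-3 has the highest stress and amino acid means and IP14D-1 the next highest, and these lines lie together at low cholesterol means. IP36D-3 lies between them and the other lines in the stress mean and near ESC2 in the cholesterol mean. The fibroblast mean is highest in IP14D-1.

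Genes of fibroblasts and of the contractile apparatus were higher in IP14D-1. Of 34 measured fibroblast genes 10 were called higher (29.4%) and 0 lower, against 1.5% and 1.89% of all genes. Their median was 0.42, and 31 lay above 0. Lox, which crosslinks collagen, stood at 6.92, 6.98 and 7.00 in IP14D-1 and 4.36, 4.31 and 4.09 in IP36D-3, a difference of 2.71 ± 0.17 (adjusted p = 2.15e-09). The fibrillar collagens Col5a2, Col1a2 and Col1a1 differed by 2.28 ± 0.23, 1.43 ± 0.11 and 1.13 ± 0.14, and Vim, an intermediate filament that pluripotent cells also express, stood at 10.43 against 9.21.

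Most of these genes were dim. In IP14D-1 20 of the 34 stood under the array median and in IP36D-3 25 did, among the called ones Col1a1 at 5.69 and Col3a1 at 4.99 in IP14D-1. The other probe set of Col3a1 went the opposite way. With 16 added to each value before the log, 6 of the list were called, and 1 was called when only genes at or above the median level were tested. Summed over the list the linear intensity was 9247 to 9673 in IP14D-1 and 6038 to 6324 in IP36D-3. The list mean was 5.89 in ESC2, nearer IP14D-1, and 5.28 in IP20D-3, nearer IP36D-3. The summed intensity of the 14 measured feeder markers gave the reverse placement. It was 1610 to 1860 in ESC2, nearer IP36D-3, and 2483 to 2689 in IP20D-3, nearer IP14D-1. Of these markers, 13 stood under the array median in IP20D-3 and in IP36D-3, so 1 gene supplies most of the sum there. The placement of these lines thus depends on the measure, and by the sum it rests on few genes.

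Of 27 measured contractile genes, targets of SRF and YAP, 7 were called higher (25.9%) and 0 lower, against 1.5% and 1.89% of all genes. Their median was 0.57. Acta2, smooth muscle actin, stood at 9.98, 10.14 and 9.98 against 6.96, 6.86 and 6.73, a difference of 3.18 ± 0.10 or 9.06-fold (adjusted p = 9.73e-13). Of its 2 other probe sets, both under level 6, 1 went the same way. Tagln and Cald1, which bind actin, stood at 10.76 ± 0.05 against 9.07 ± 0.04 and 10.07 ± 0.04 against 8.74 ± 0.11.

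Thbs1, a secreted matrix protein, stood at 7.69, 7.69 and 7.76 against 5.56, 5.43 and 5.10, a difference of 2.35 ± 0.13. Axl, a receptor tyrosine kinase, differed by 1.82 ± 0.12, but its other probe set, under level 6, went the opposite way and averaging the probe sets ended the call. Flna, which crosslinks actin, differed by 1.02 ± 0.08. The YAP targets Ccn1 and Ccn2 differed by 0.77 ± 0.09 and 0.67 ± 0.08, short of the threshold. Fibroblasts express many of these genes, feeder markers moved in the same direction, and their part in the contractile result was not tested.

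Of 18 basement membrane genes 3 were called higher (16.7%, against 1.5% of all genes): Lama5, a laminin chain, by 1.20 ± 0.08, Col18a1 by 1.08 ± 0.09 and Hspg2, perlecan, by 1.03 ± 0.12. Lama5 lost its call when probe sets were averaged, and Hspg2 when 16 was added before the log or without the second array of IP36D-3. The median of that list was 0.70, and 0.46 without its chromosome 8 genes. For each of the 3 genes the lines with the lower 18S signal (IP14D-1, R1 and IP14D-101) all stood above the lines with the higher one (IP36D-3, ESC2 and IP20D-3). Over all genes that order held for 22.7%, and for 32.6% of the genes called higher. These shares have unlike bases, since genes called higher have IP14D-1 above IP36D-3 by selection and all genes do not. They therefore show neither an excess nor a deficit. The order held for Epop, Zfp57, Nnat, Peg10, Dlk1, Flna, Axin2, Smad7 and Snai1 also. The reverse order held for Sc5d and Hsd17b7, 2 of the 7 cholesterol genes called, and for Pax6. Neither order held for any of the 10 fibroblast, 11 stress, 7 amino acid and 5 pluripotency genes called. The part of whatever the 18S signal follows in these results was not tested.

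Targets of p53 and inhibitors of the cell cycle were called in the upward direction only, 6 of 32 measured (18.8%, against 1.5% of all genes), with a median of 0.30. Cdkn2b, an inhibitor of Cdk4 and Cdk6, stood at 7.06, 7.64 and 7.2 against 5.50, 5.48 and 5.84, a difference of 1.69 ± 0.15. Aen, a nuclease induced by p53, stood at 9.73 ± 0.06 against 8.15 ± 0.02, with 3 of 3 other probe sets in the same direction. Cdkn1a, the p21 inhibitor, differed by 1.63 ± 0.09, but another probe set of it above level 6 went the opposite way and averaging the probe sets ended the call.

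Sesn2, also a stress gene above, and Bbc3, which promotes apoptosis, differed by 1.20 ± 0.12 and 1.04 ± 0.08. Cdkn2a, which encodes the Ink4a and Arf proteins, stood at 4.81 against 3.70, under the array median in both lines. Mdm2, the p53 target that degrades p53, differed by 0.87 ± 0.09 and Ccng1 by 0.10 ± 0.08, with no call. The order by 18S signal held for Bbc3, Cdkn1a and Cdkn2a. Feeder markers moved in the same direction as this list also, and their part was not tested.

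**Figure D4:**
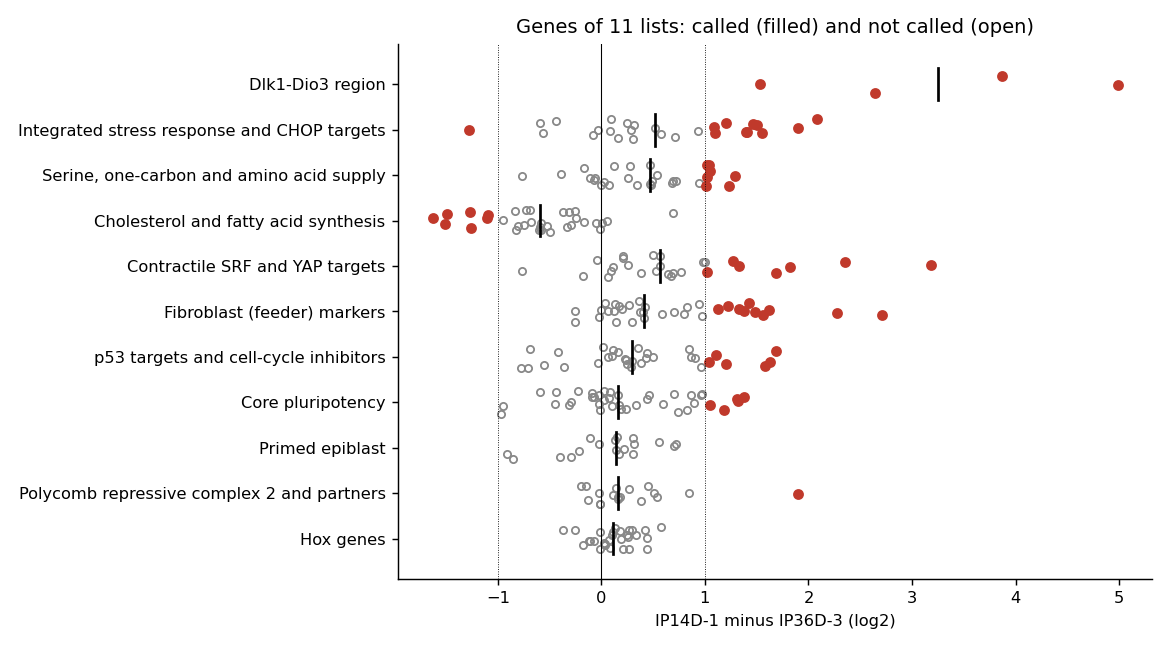
Difference between the lines (IP14D-1 minus IP36D-3, log2) for each measured gene of 11 lists; filled points are called, open points are not, bars are list medians and dotted lines mark a difference of 1. The Dlk1-Dio3 genes all lie above 1, the stress, amino acid, contractile and fibroblast lists have medians of 0.42 to 0.57, and the cholesterol list has a median of -0.59.

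Of 39 core pluripotency genes 5 were called higher in IP14D-1 (12.8%, against 1.5% of all genes) and 0 lower, with a median of 0.16. Klf2, a Krüppel-like factor of the naive state, stood at 10.91, 10.89 and 11.02 in IP14D-1 and 9.71, 9.56 and 9.42 in IP36D-3, a difference of 1.38 ± 0.09 or 2.6-fold (adjusted p = 3.67e-09). ESC2 stood at 9.02 and IP20D-3 at 11.15. Tbx3, a T-box factor of naive cells, stood at 8.97 ± 0.17 against 7.65 ± 0.24, the adhesion protein Jam2 at 9.62 ± 0.19 against 8.30 ± 0.02 and the cell-cycle factor Mybl2 at 11.45 ± 0.12 against 10.27 ± 0.03.

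Klf5 was at 12.23 ± 0.09 against 11.17 ± 0.13, but another probe set above level 6 went the opposite way. Klf4, of the same family, stood just under the threshold at 0.97 ± 0.07 (adjusted p = 1.11e-08). Averaging the probe sets left 3 of the list called, without Klf5 and Tbx3. The core factors were closer. Pou5f1 differed by 0.07 ± 0.08 (adjusted p = 0.51), Nanog by 0.33 ± 0.08 and Sox2 by 0.44 ± 0.08. Esrrb and Nr0b1, of the naive network, differed by 0.96 ± 0.10 and 0.89 ± 0.07, and Tfcp2l1 and Zfp42 by -0.01 ± 0.09 and -0.07 ± 0.07. None of these was called.

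Of 18 genes of the primed epiblast, the state that follows the naive one, 0 were called, against 3.39% of all genes. In a list of this size a count of 0 is near that share and says little about the list. The differences ran from -0.91 to 0.72. Fgf5, a marker of that state, stood at 5.45, 5.12 and 5.96 against 6.41, 6.45 and 6.41, a difference of -0.91 ± 0.21 (adjusted p = 0.00162), and Otx2 differed by -0.85 ± 0.16. At an unadjusted p under 0.05 in limma 7 of the 18 were higher and 4 lower, so the count of 0 rests on the size asked for. Myc differed by -0.35 ± 0.09 and Xist, the RNA of the inactive X chromosome, by 0.05 ± 0.18 (adjusted p = 0.867).

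Signalling genes were called in both directions. Sp5, a target of Wnt signalling, stood at 7.98 ± 0.10 against 6.21 ± 0.19, a difference of 1.77 ± 0.15. Axin2, a feedback inhibitor of the Wnt pathway, differed by 1.31 ± 0.16, and Smad7, an inhibitor of the TGF-beta pathway, by 1.06 ± 0.08. Both lost their call when probe sets were averaged, and Smad7 also without the third array of IP36D-3. Id1, a target of BMP signalling, stood at 9.63 against 10.84, a difference of -1.21 ± 0.16. Dusp6, which reports on ERK signalling, was at 9.37 against 10.38, and its difference of -1.01 ± 0.11 lost its call under 7 settings. In all, 3 of 40 Nodal and Wnt genes were called higher (7.5%) and 1 lower (2.5%), against 1.5% and 1.89% of all genes. The share called lower was thus near that of all genes. Of 18 LIF and STAT3 genes 1 was called higher (5.56%), Sp5, which both lists hold.

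Lineage genes were called in both directions, and the call rates of all genes were 1.5% higher and 1.89% lower. Pax6, a factor of eye and neural progenitors, stood at 5.49, 5.84 and 5.66 against 7.38, 7.52 and 7.42, a difference of -1.77 ± 0.13, and Olig1, of oligodendrocyte precursors, at 7.82 against 9.22. Over 28 neuroectoderm genes 1 was higher (Cdh2, 1.26 ± 0.16, not called when probe sets were averaged) and 2 were lower, with a median of -0.01. Of 35 genes of primitive and visceral endoderm, Fst was higher (1.41 ± 0.17), and Cubn, Srgn and Amn were lower by amounts from 1.15 to 1.48. Cubn, Srgn and Amn each lost the call when 16 was added before the log.

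Cubn and its partner Amn take up proteins in visceral endoderm, and Cubn and Srgn stood under the array median in both lines. Krt8, a keratin of simple epithelia and trophectoderm, stood at 10.09 against 8.65 (1.44 ± 0.14), and Gjb5, a connexin, was lower (-1.09 ± 0.14). Gjb5 was not called without the first array of IP14D-1 or when 16 was added before the log. Of 24 trophectoderm genes 2 were called higher, Krt8 and Peg10, and 1 lower. Of 25 mesoderm genes, Cdh2 and Snai1 were called higher, and Snai1, under the array median in both lines, lost its call under 3 settings, 2 of which leave out the first array of IP14D-1 or the third of IP36D-3. Hox genes, 29 measured, and germline genes, 31 measured, had 0 calls, against 3.39% of all genes, and in lists of this size 0 is near that share. Their differences ran from -0.37 to 0.58 and from -0.96 to 0.96, and 27 of the Hox genes lay under the array median. At an unadjusted p under 0.05 in limma, 9 Hox genes were higher and 1 lower, and 11 germline genes were higher and 8 lower.

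Chromosome 8 held 92 of the 344 genes called lower in IP14D-1 (26.7%) and 5.12% of the genes. Of its 932 genes 9.87% were called lower and 3 genes were called higher, against 1.46% called lower among all other genes. Among genes with a mean of at least 6, 249 of 8920 were called lower (2.79%). On chromosome 8 they were 74 of 509 (14.5%), and the median difference was -0.57, with 83.3% of the genes below 0. The medians of the other chromosomes ran from -0.19 to -0.04. The shift was present along the chromosome. In 5 blocks of 101 or 102 genes in gene order, from Insr to Itgb1, the medians were -0.57, -0.56, -0.47, -0.62 and -0.60.

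Relative to the other chromosomes and to the mean of the 18 arrays, chromosome 8 stood at -0.15, -0.14 and -0.12 in IP14D-1 and at 0.33, 0.32 and 0.32 in IP36D-3. The difference was -0.46 (SD 0.014 in IP14D-1 and 0.005 in IP36D-3, n = 3 each). The exact two-sided permutation test gave p = 0.1, the smallest p that 3 against 3 arrays allow. Chromosome 8 was chosen with earlier results of these data known, and each group is 1 line. No conclusion is therefore drawn from that p. ESC2 stood at -0.16 to -0.14, IP20D-3 at 0.05 to 0.06, R1 at -0.01 to 0.02 and IP14D-101 at -0.10 to -0.04. IP36D-3 was thus the line that stood apart upward, and IP14D-1 lay with ESC2. Arrays of expression give no copy number, and chromosome dosage was not tested.

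**Figure D5:**
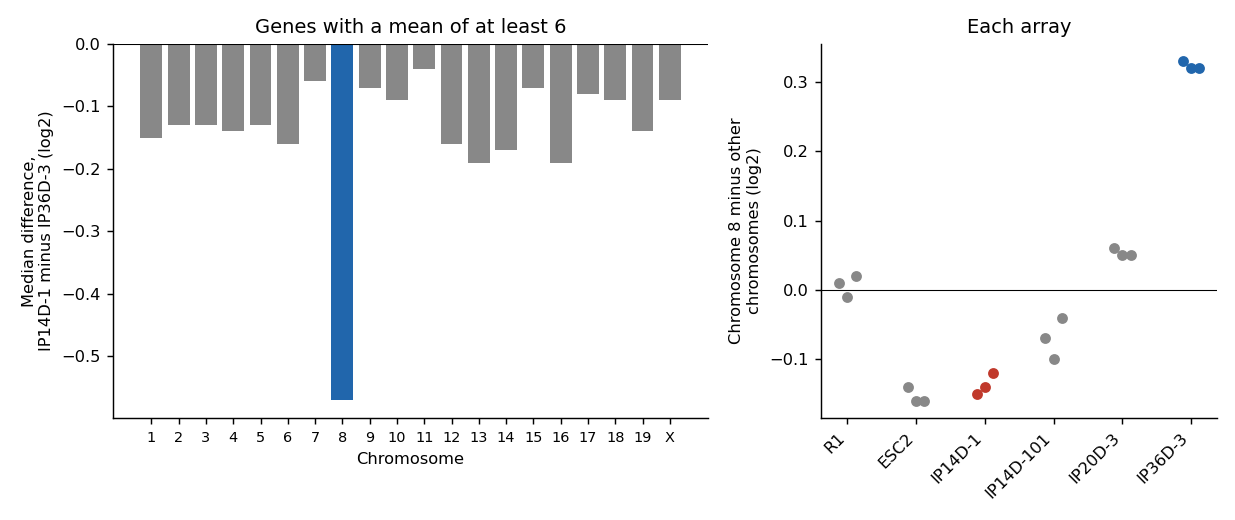
Left, the median difference (IP14D-1 minus IP36D-3, log2) of genes with a mean of at least 6, by chromosome; chromosome 8 is at -0.57 and the others between -0.19 and -0.04. Right, the median of chromosome 8 minus that of the other chromosomes (log2, relative to the mean of all 18 arrays) in each array, between 0.32 and 0.33 in IP36D-3 and between -0.15 and -0.12 in IP14D-1.

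Genes of chromosome 8 were among the largest negative differences, that is, those with IP36D-3 above IP14D-1. Wrn, a helicase of DNA repair, stood at 5.30, 4.93 and 5.31 against 7.21, 7.18 and 7.18, a difference of -2.01 ± 0.11 (adjusted p = 8.47e-10). Lpl, lipoprotein lipase, stood at 6.19, 6.36 and 6.57 against 8.24, 8.28 and 8.04, a difference of -1.81 ± 0.10 (adjusted p = 8.47e-10). Gsr, which regenerates reduced glutathione, was at 8.51 against 9.98. Each was higher in all 3 arrays of IP36D-3.

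Arrdc2, an arrestin-like protein, differed by -1.98 ± 0.15, AA386476 by -1.82 ± 0.11 and Ankrd37, a hypoxia-induced gene, by -1.64 ± 0.13. In IP14D-1 Wrn, Arrdc2 and AA386476 stood under the array median, at levels not shown to lie above background. The heat shock cochaperone Dnajb1 and the antiviral membrane protein Bst2 on the same chromosome differed by -1.26 ± 0.10 and -1.15 ± 0.08. For Ankrd37 IP20D-3 stood at 4.97 and ESC2 at 6.35. Against the direction of the chromosome, Klf2 and Slc7a5 were higher in IP14D-1, as given above. Without the genes of chromosome 8, 522 genes were called, 270 higher and 252 lower.

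Other genes of large difference belong to none of the groups above. Prss23, a secreted serine protease, stood at 7.35, 7.39 and 7.05 in IP14D-1 and 3.57, 4.12 and 4.20 in IP36D-3, a difference of 3.30 ± 0.20 or 9.83-fold (adjusted p = 1.42e-09). Ptgs2, the inducible cyclooxygenase, stood at 6.40 against 3.8. The zinc finger gene Zfp229 stood at 8.45 against 5.53, the RNA-binding protein Rbm45 at 9.07 against 6.43 and the membrane protein Tmem87a at 7.07 against 4.51. In IP36D-3 Prss23, Ptgs2, Zfp229 and Tmem87a stood under the array median, at levels not shown to lie above background. For Prss23, Ptgs2, Rbm45 and Tmem87a, ESC2 (7.78, 6.95, 9.60 and 7.36) lay nearer IP14D-1 and IP20D-3 (3.45, 4.40, 6.06 and 4.82) nearer IP36D-3.

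The largest negative difference was that of Gna14, a G protein subunit. Its arrays stood at 4.04, 4.18 and 4.55 against 6.90, 7.06 and 7.01, a difference of -2.73 ± 0.14 (adjusted p = 5.29e-10). Hyls1, a centriole protein, Nlrp4f, Tmem267, Catsperz, of the sperm calcium channel, and Etfbkmt, a methyltransferase, were lower by amounts from 1.84 to 2.00. In IP14D-1 Gna14, Hyls1, Nlrp4f, Tmem267 and Catsperz stood under the array median, at levels not shown to lie above background. The other probe set of Hyls1 went the opposite way, and Zfp229 and Nlrp4f belong to families of similar genes, so probes may be shared among their members.

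Over the 273 genes called higher in IP14D-1, ESC2 lay nearer IP14D-1 for 125 and nearer IP36D-3 for 148, and IP20D-3 nearer them for 96 and 177. Over the 344 called lower, ESC2 lay nearer IP14D-1 for 202 and IP36D-3 for 142, and IP20D-3 for 180 and 164. On chromosome 8, ESC2 lay nearer IP14D-1 for 73 of the 92 lower genes and nearer IP36D-3 for 19, and IP20D-3 for 52 and 40. On the other chromosomes the 252 lower genes divided into 129 and 123 for ESC2 and 128 and 124 for IP20D-3.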

How the data were processed

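Total RNA of 6 lines was measured on Affymetrix arrays, 3 per line. The deposited values are linear probe set intensities that the authors made with RMA (background correction, quantile normalization, probe summary), per the submitters' processing notes. No source used here gives the version of RMA. Array medians were 29.2 to 30.5, and the number of arrays limits the precision.

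Of 45101 probe sets, 64 controls were left out, 34945 had 1 gene symbol in the platform annotation, 932 had several and 9160 none; the last 2 kinds were not named. By identifier 34741 were found in RefSeq (GRCm38.p6) and 0 symbols changed. Each of 18193 genes was represented by its probe set of highest mean over the 18 arrays; 9010 had several. The log2 intensities were fitted in limma 3.58.1 (R 4.3.3) with a mean per line over 18 arrays (12 residual degrees of freedom) and Benjamini-Hochberg adjustment over all genes, after a check of the script on simulated data. Python 3.11.15, pandas 2.3.3, numpy 2.4.6, scipy 1.17.1 and matplotlib 3.10.9 made the tables and plots.

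The comparison, the 28 gene lists and the rule for named genes were chosen with earlier results of these data known. The rule takes the 10 largest differences each way among called genes at level 6 or more in the higher line with no overlap, up to 5 called members per list, the 6 largest of chromosome 8, and Pou5f1, Nanog, Sox2, Klf4, Myc and Xist; other list members are given as values. Promoters came from RefSeq. Same-numbered arrays of both lines had deviations with r = 0.18, 0.14 and 0.15 across genes, against -0.14 to -0.01 for other numbers. Over all 6 lines 12 of 45 same-numbered pairs had r over 0.1, with a range of -0.25 to 0.26. Deviations within a line sum to 0, so these values are not independent. Whether the replicate number pairs the arrays is not settled by them. Alternatives changed the scaling, probe set choice, filter, thresholds, block, arrays and chromosomes; no array pair held identical values (0 pairs).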

Additional observations from a re-analysis of the deposited data

How the results depend on the processing

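Over 20 alternatives, no called gene named above changed direction, 61 single values lost the call, and 54 of the 89 named called genes stayed called under each alternative that tested them. Of 95 named genes, the fit without chromosome 8 tested 85 and that of genes at or above the median level 73. The replicate block changed no call (617 genes), and the fit of the 6 arrays alone also gave 617. Averaging all probe sets of a gene gave 396 calls (168 higher, 228 lower) and a chromosome 8 median of -0.49, and adding 16 before the log gave 388 (195 lower, 193 higher) and -0.54. Repeated quantile normalization gave 589 calls, 329 of them higher (55.9% against 44.2%), and a chromosome 8 median of -0.48; equal array medians gave 607 and -0.54. Testing every probe set gave 1253 (541 higher, 712 lower), the adjusted p alone 7743 (3210 and 4533) and a 1.5-fold threshold 2698 (920 and 1778). Without single replicates the calls ran from 593 to 702, higher from 250 to 293, lower from 317 to 409, and the chromosome 8 median from -0.58 to -0.56. Xist, not called, was at -0.04 without replicate 2 of IP14D-1, -0.01 without replicate 1 of IP36D-3 and up to 0.15 without replicate 1 of IP14D-1. The cause was not tested except where fewer or more features were tested by construction. Genes under the array median have little signal over background, and their differences are the least certain.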

Other observations

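Several other groups of genes held calls in both directions or in 1, against call rates of 1.5% higher and 1.89% lower over all genes. Among 32 genes of glycolysis and hypoxia, Ddit4 was higher in IP14D-1 and Ankrd37 and Egln3, a prolyl hydroxylase induced by hypoxia whose call was lost under 4 settings, were lower, with a median of -0.14. Among 16 heat shock chaperones Cryab was higher by 1.30 ± 0.18 (standard error, log2), a call lost when probe sets were averaged, and Dnajb1 was lower. Among 33 interferon and MHC class I genes the lower ones were Igtp, an interferon-induced GTPase, and Bst2, and 0 were higher. Among 26 immediate-early genes Atf3 was higher and Dusp6 lower. Among 12 measured two-cell-stage genes Usp17la, of a family of near-identical copies, was higher by 1.54 ± 0.15 at levels under the array median.

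The array numbered 3 differed from the other arrays of its line in the same groups in both lines. It was the lowest for 20 of 27 stress genes in IP14D-1 (74.1%) and 19 of 27 in IP36D-3 (70.4%), against 29.4% and 34.3% of all genes. For amino acid genes it was the lowest for 21 of 29 and 16 of 29. For cholesterol and fatty acid genes it was the highest for 24 of 33 (72.7%) and 17 of 33 (51.5%), against 39.0% and 29.1% of all genes. No test was made of this pattern, which was noticed in these values.

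Polr2a, the largest subunit of RNA polymerase II, was chosen after its values were seen. It stood at 10.85, 10.79 and 10.68 in IP14D-1 and 8.57, 8.52 and 8.62 in IP36D-3, a log2 difference of 2.20 ± 0.09 (adjusted p = 2.83e-11). Its means were 10.65 in R1 and 10.97 in IP14D-101, against 8.57 in ESC2 and 8.92 in IP20D-3, the order of the 18S signal. The reverse order has the lines of lower 18S signal all below the others. It held for 85 of the 344 genes called lower in IP14D-1 (24.7%) and for 8.65% of all genes. These shares too have unlike bases, since genes called lower have IP14D-1 below IP36D-3 by selection.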
